A study of Danio rerio with 5 samples.

Results

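The kinesin, dynein and dynactin motors carry cargo along microtubules, and they were measured here in motor neurons of the vagus nucleus, picked from embryos of the zebrafish (Danio rerio). Members were taken by symbol: kinesin heavy chains (kif and a digit, or kifc), kinesin light chains (klc), cytoplasmic dynein subunits (dync and dynl), dynactin subunits (dctn) and the dynein regulators ndel1, nde1 and pafah1b1. The rule found 79 of 31953 genes. Posterior cells were profiled in 3 libraries (B, G and R) and anterior cells in 2 libraries (B and G). All embryos carried the transgene Tg(isl1:Kaede), in which isl1 sequences place the photoconvertible protein Kaede in motor neurons, and all were 28 to 30 hours old (hours after fertilisation). Each library was amplified from 100 hand-picked cells, whose Kaede had been converted at one end of the vagus nucleus. The vagus nucleus sends its axons out through several branches, and posterior cells were set against anterior cells to find how their expression differs.

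Kinesins are motor proteins that use ATP to step along microtubules, most of them towards the plus end. In an axon plus ends point away from the cell body, so transport kinesins take vesicles, mitochondria and other cargo outwards. Cytoplasmic dynein walks the other way with the dynactin complex as its cofactor, and carries cargo back. Another set of kinesins is best known for building the spindle and dividing the cell. Whether these marked dividing cells here was not tested. No member's sequence is printed here.

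Reads assigned to genes numbered 14932562 to 19197178 in the posterior and 17433311 to 20088585 in the anterior libraries. Values below are counts per 1000000 assigned reads (CPM), scaled with trimmed-mean (TMM) factors. A CPM counts reads over a whole transcript, so levels are compared between libraries and not between genes. The floor of 3 counts, taken as the limit for a gene with no read, was 0.158 to 0.195 CPM in posterior and 0.149 to 0.177 CPM in anterior libraries, for counting error only. Posterior B detected the fewest genes (10463, against 12241 to 13589 in the other 4 libraries). It had no read for 13.8% of the genes that averaged 30 to 100 CPM in the other libraries, and for 0.693% at 100 to 300 CPM. Of the defining motor neuron genes, ISL1 ran from 1805 to 2255 CPM in posterior and from 1848 to 2381 CPM in anterior libraries. Of the 16 genes of the motor neuron list, 12 were tested. At an unadjusted p under 0.05 (edgeR), 1 was higher and 3 lower in posterior cells, against 2.28% and 4.21% of all tested genes. The higher gene was PHOX2A, which peaked at 1466 CPM in posterior B. Posterior G held 106 CPM of PHOX2A and posterior R 310 CPM, while anterior B held 84.9 CPM and anterior G 220 CPM, so its groups overlapped. PRPH, a neuronal intermediate filament, had 53.6 to 127 CPM in posterior and 230 and 586 CPM in anterior libraries, and RET, a growth factor receptor, 93.8 to 262 CPM in posterior and 324 and 482 CPM in anterior libraries. The third lower gene, 1 of the TBX2 genes (ENSDARG00000018025), had at most 11.2 CPM in posterior libraries, against 0 and 80.9 CPM in anterior B and G. The part of these in the motor values was not tested. CHAT, the acetylcholine synthesis gene, was at 0 in posterior B and at most 36.1 CPM, in anterior G. The 17 progenitor and cycling genes, all tested, summed to 7818 to 10502 CPM in posterior and 7012 to 10497 CPM in anterior libraries, and the single value at 0 among them was NOTCH1 (ENSDARG00000052094) in posterior R. Muscle genes summed to 12.3 to 26.5 CPM in posterior and 0.148 to 0.177 CPM in anterior libraries. Glial genes summed to 1285 to 1489 CPM in posterior and 1954 and 2177 CPM in anterior libraries, with mbpa, SOX10 and 1 of the FABP7 genes at 0 throughout. Blood genes had 1 read in all, and no microglial, endothelial or epidermal list passed 0.2 CPM in posterior libraries, against up to 97.0 CPM (the endothelial list) in anterior B. Interneuron genes reached 21.4 CPM in posterior G and 28.8 CPM in anterior G.

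Of the 79 members, 15 had no read in any library, 6 were detected but removed by the filter on low counts, and 58 were tested. The edgeR quasi-likelihood test, with Benjamini-Hochberg adjustment over 11827 genes, gave no member an adjusted p under 0.05, and 0% of all tested genes. Of the 58 log2 fold changes, 26 were above 0, against 47.9% of all tested genes. The smallest adjusted p among the members was 0.683. An unadjusted p under 0.05 was found for 6 members, against 6.49% of all tested genes. Of the 6, 2 were higher in posterior cells (2.28% of all tested genes) and 4 were lower (4.21%). The 6 became 3 without posterior R, where 523 of 10770 tested genes had such a p (edgeR). They became 5 without posterior G (502 of 11039 genes) and stayed 6 without posterior B (867 of 11422 genes). Without 1 anterior library the count moved further, in either direction. DESeq2 gave an adjusted p under 0.05 to 1 member and to 252 of 11827 genes, and limma-voom to 0 of either. Posterior and anterior libraries did not overlap in 16 of the 58 members, against 21.9% of all tested genes: 5 were higher in posterior (9.57% of tested genes) and 11 were lower (12.3%). The median log2 fold change, posterior over anterior, was -0.16 over the tested members and -0.055 over all tested genes. Setting genes at 0 in one group to the limit of 3 counts left both medians as they were. This step changed 1 member and 519 genes and kept their directions, so it could hardly move a median and is no check on zeros. Nothing labels the libraries as separate animals or sessions, so these p-values measure the spread between libraries, which may be technical.

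**Figure D1:**
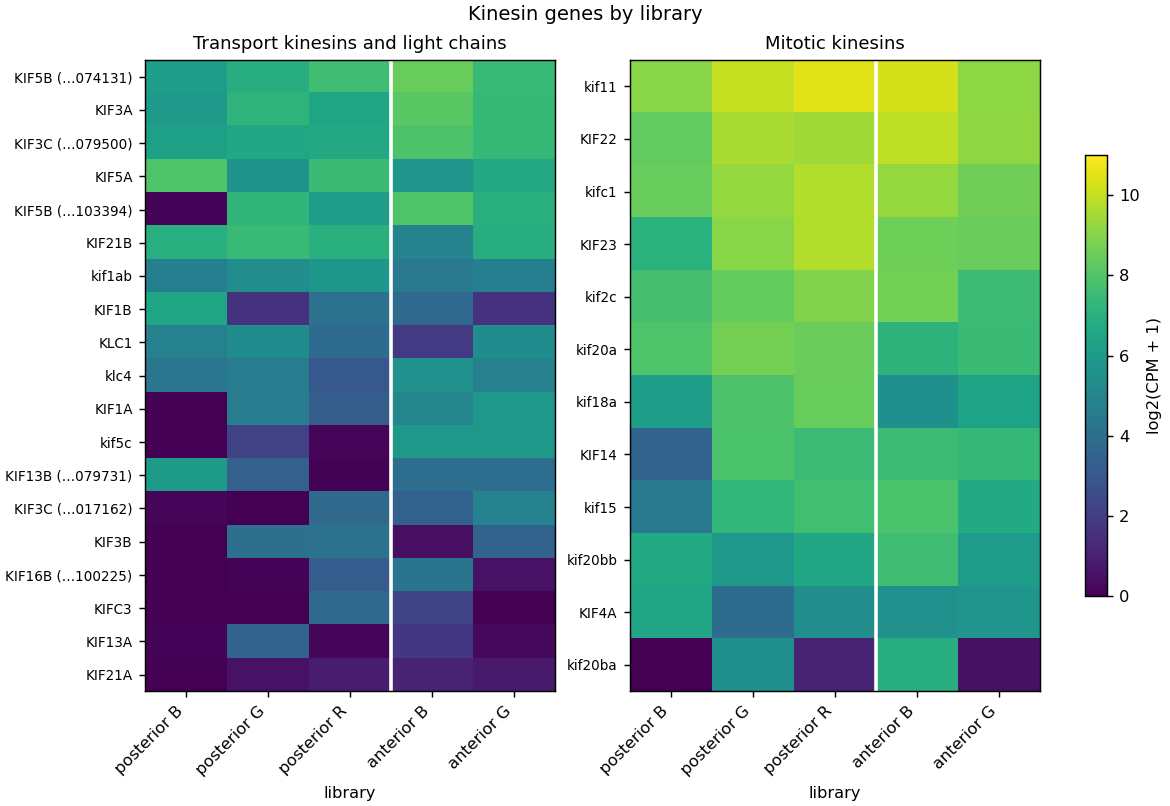
Levels of the 19 tested transport kinesins and light chains and of the 12 mitotic kinesins, as log2(CPM + 1), with 1 column per library (posterior B, G and R, then anterior B and G, split by the white line) and 1 row per gene, ordered by mean CPM. Numbers in brackets are the last 6 digits of the Ensembl identifier where genes share a symbol; the darkest cells are genes at or near 0 counts, most often in posterior B.

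Transport kinesins had 27 members, of which 5 had no read, 3 were removed by the filter and 19 were tested. Of the tested genes, 9 were higher and 10 lower in posterior cells. At an unadjusted p under 0.05 (edgeR), 3 were lower, against 4.21% of all tested genes. The median log2 fold change of the class was -0.94. This is the value of KIF21A (SE 1.90, edgeR), which was under 1.1 CPM in every library. The next value above it was 0.24, of KLC1, so the median lay at the edge of a wide gap. That median was -0.43 without anterior B, and 0.38 over 22 genes with no filter beyond 1 count, so its sign depended on the genes kept. Summed over all 27 members, with long transcripts counting for more, transport kinesins came to 804.5, 889 and 910.4 CPM in posterior libraries B, G and R, against 1433 and 1107 CPM in anterior B and G. The posterior libraries were all below the anterior ones, and lay close together. In bulk RNA, fewer cells that express a gene and less RNA per cell cannot be told apart. Of the neuron marker list, 9 of 10 genes were lower in posterior cells as well. At an unadjusted p under 0.05 (edgeR), 4 were lower, against 4.21% of all tested genes. The list summed to 5474 to 6305 CPM in posterior and 6429 and 10288 CPM in anterior libraries, with none at 0. The part of that in the kinesin values was not tested.

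Within the transport class, 2 families were lower in every posterior library. The kinesin-1 heavy chains, which move mitochondria and vesicles and are the best known long-range axonal motors, summed to 320.2, 313 and 444 CPM in posterior libraries B, G and R and to 708 and 454 CPM in anterior B and G. Posterior R came within a few percent of anterior G. The kinesin-2 genes, which move vesicles in axons and particles in cilia, summed to 136, 249.5 and 219.96 CPM in posterior libraries and to 542 and 369 CPM in anterior libraries. The other families overlapped or lay higher in posterior cells. Kinesin-3 genes, which carry synaptic vesicle precursors, summed to 179.7, 86.1 and 88.2 CPM in posterior and 100.05 and 100.7 CPM in anterior libraries. Kinesin light chains, which join kinesin-1 to cargo, summed to 46.7, 63.6 and 20.8 CPM in posterior and 49.3 and 66.9 CPM in anterior libraries.

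The kinesin-1 gene kif5c (ENSDARG00000076027), a heavy chain enriched in mammalian neurons, had the largest difference among the transport kinesins. The posterior libraries B, G and R had 0, 3.36 and 0.106 CPM of kif5c, against 57.4 and 57.0 CPM in anterior B and G. Both anterior libraries held close to 57 CPM, while the posterior libraries held 0, 53 and 2 reads. The log2 fold change of kif5c was -5.69 ± 1.55 (SE; edgeR unadjusted p 0.00346, adjusted p 0.726). It kept an unadjusted p under 0.05 in 11 of 12 alternatives, the exception being the legacy form of the edgeR test. Of genes that averaged 10 to 30 CPM in the other libraries, 44.8% had 3 reads or fewer in posterior B and 17.6% in posterior R. At 30 to 100 CPM, the range of the anterior values of kif5c, these shares were 19% and 3.25%. The part of missed reads in the kif5c values was not tested.

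Of the remaining kinesin-1 heavy chains, both KIF5B genes had lower and KIF5A higher posterior means. KIF5B, the broadly expressed form, was present as a pair of genes. In posterior B, G and R, the first (ENSDARG00000074131) stood at 68.1, 113 and 198 CPM, and in anterior B and G at 345 and 173 CPM. The highest posterior value lay between the anterior ones, so that the groups overlapped. Its log2 fold change was -1.0 ± 0.55 (SE; edgeR unadjusted p 0.0939, adjusted p 0.726). Without anterior B it was -0.43 (unadjusted p 0.545), and without posterior R -1.48 (unadjusted p 0.0483). The second (ENSDARG00000103394) had 0.0649, 147 and 66.0 CPM in posterior libraries B, G and R and 253 and 126 CPM in anterior B and G. Here posterior B stood apart with 1 read, and posterior G was above anterior G. That gene had a log2 fold change of -1.40 ± 0.82 (SE; edgeR unadjusted p 0.112, adjusted p 0.726), which was -0.80 without posterior B and -2.41 without posterior G. KIF5A, the heavy chain whose mutations cause motor neuron disease in humans, had its highest value in posterior B. Levels of KIF5A (ENSDARG00000098936) were 252, 49.2 and 179 CPM in posterior libraries B, G and R, against 51.6 and 97.7 CPM in anterior B and G. The test gave KIF5A a log2 fold change of 1.08 ± 0.70 (SE; edgeR unadjusted p 0.149, adjusted p 0.733), which was 0.64 without posterior B and 1.51 without posterior G. Its partner kif5ab had at most 4 reads in a library and was not tested.

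Among kinesin-2 genes, KIF3A (ENSDARG00000087538) and 1 of the KIF3C genes (ENSDARG00000079500) were lower in posterior cells at an unadjusted p under 0.05. KIF3A is the shared subunit that pairs with KIF3B or KIF3C to form the motor. The posterior libraries B, G and R had 60.7, 142 and 91.3 CPM of KIF3A, against 293 and 166 CPM in anterior B and G. The groups did not overlap, though posterior G and anterior G lay close together. Posterior over anterior, KIF3A had a log2 fold change of -1.22 ± 0.54 (SE; edgeR unadjusted p 0.0444, adjusted p 0.726). KIF3C had tighter groups. In posterior B, G and R, KIF3C stood at 75.3, 92.4 and 99.1 CPM, and in anterior B and G at 239.5 and 165 CPM. The log2 fold change of KIF3C was -1.17 ± 0.51 (SE; edgeR unadjusted p 0.0413, adjusted p 0.726). Each of them kept an unadjusted p under 0.05 in 7 of 12 alternatives. KIF3A lost it without anterior B, posterior B or posterior R, and in the legacy form of the edgeR test. KIF3C lost it without anterior B or any 1 posterior library. Both lost it with the replicate letter as a block. Without anterior B the log2 fold change was -0.76 for KIF3A and -0.89 for KIF3C (edgeR, unadjusted p 0.287 and 0.196). The second KIF3C gene (ENSDARG00000017162) and KIF3B had fewer than 30 CPM in every library. The first of them had 2 reads in posterior B and none in posterior G, and KIF3B had none in posterior B. KIFAP3, which encodes the third subunit of this motor, is no member by its symbol. Both KIFAP3 genes had lower posterior than anterior means, and 1 of them (ENSDARG00000008639) did not overlap between groups, with 57.2 to 88.1 CPM in posterior and 98.8 and 146 CPM in anterior libraries.

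**Figure D2:**
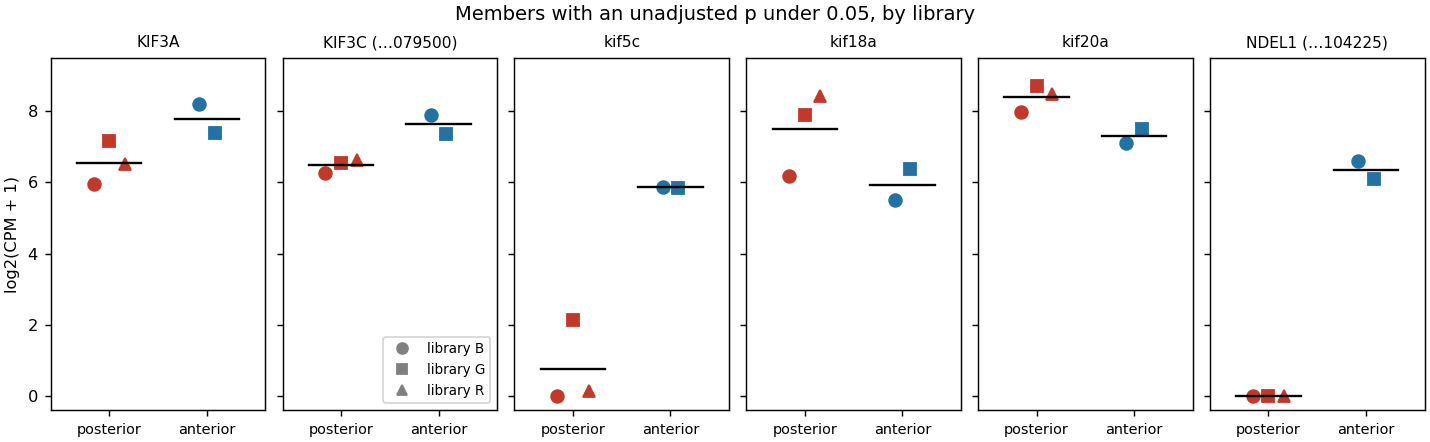
The 6 members with an unadjusted p under 0.05, as log2(CPM + 1) in each library (posterior red, n = 3; anterior blue, n = 2; marker shape gives the library letter; black lines are group means on this scale). kif18a is the one member of the 6 whose groups overlap, and NDEL1 (ENSDARG00000104225) is at 0 in all posterior libraries.

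Kinesin-3 genes carry synaptic vesicle precursors and mitochondria along axons, and none had an unadjusted p under 0.05. The KIF1A pair went in opposite directions. KIF1A (ENSDARG00000061817) had 0, 23.3 and 8.34 CPM in posterior libraries B, G and R and 31.4 and 57.8 CPM in anterior B and G. Levels of kif1ab (ENSDARG00000062024) were 26.2, 40.8 and 54.9 CPM in posterior libraries B, G and R, against 20.2 and 25.7 CPM in anterior B and G. Neither gene overlapped between groups, KIF1A being lower and kif1ab higher in posterior cells. KIF1A thus gave 0%, 36.4% and 13.2% of the reads of the pair in posterior B, G and R, against 60.8% and 69.2% in anterior B and G. For KIF1A the log2 fold change was -2.11 ± 1.1 (SE; edgeR unadjusted p 0.0772, adjusted p 0.726). kif1ab had a log2 fold change of 0.83 ± 0.90 (SE; edgeR unadjusted p 0.371, adjusted p 0.868). KIF1B was mostly read in 1 library. The posterior libraries B, G and R had 91.3, 2.09 and 16.4 CPM of KIF1B (ENSDARG00000037020), against 12.7 and 1.93 CPM in anterior B and G. The test gave KIF1B a log2 fold change of 2.36 ± 1.51 (SE; edgeR unadjusted p 0.142, adjusted p 0.728). It was 0.54 without posterior B and 4.19 without anterior B. KIF1C had at most 3 reads in a library and kif1cb none. Of the cargo motors KIF13A, KIF13B and KIF16B, the tested genes were at 3 reads or fewer in at least 1 library each.

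None of the other transport members had an unadjusted p under 0.05 (edgeR). KIF21B, a kinesin-4 that also slows microtubule growth in mammalian cells, did not overlap between groups, with 122 to 177 CPM in posterior and 29.3 and 116 CPM in anterior libraries. Its log2 fold change was 0.92 ± 0.65 (SE; edgeR unadjusted p 0.180, adjusted p 0.755). The light chain klc4 had 7.28 to 23.6 CPM in posterior and 26.9 and 46.7 CPM in anterior libraries, with no overlap (edgeR unadjusted p 0.251, adjusted p 0.809). KLC1 overlapped, at 13.5 to 40.1 CPM in posterior and 2.65 and 39.9 CPM in anterior libraries. KIF21A was under 1.1 CPM in every library, and KIFC3 had no read in 3 libraries. No read was found for KIF17, kif28, klc3, kif1cb or 1 of the KIF16B genes (ENSDARG00000080018).

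Mitotic kinesins, by contrast with the transport class, were all tested: 12 of 12 members, 6 higher and 6 lower in posterior cells, and their median log2 fold change was 0.048. An unadjusted p under 0.05 was found for 2, both higher in posterior cells (edgeR), against 2.28% higher over all tested genes. The summed level was 2091, 4461 and 5539 CPM in posterior libraries B, G and R, against 4577 and 2716 CPM in anterior B and G. Libraries of the same group differed by more than the group means, and posterior B was the lowest of all. The ratio of the mitotic sum to the transport sum in a library was 2.60, 5.02 and 6.08 in posterior B, G and R, against 3.19 and 2.45 in anterior B and G. The sum of the progenitor and cycling markers had the same order of libraries within each group, with 7818, 10037 and 10502 CPM in posterior libraries B, G and R and 10497 and 7012 CPM in anterior B and G. Of those 17 markers, 4 were higher and 1 lower in posterior cells at an unadjusted p under 0.05 (edgeR). Over all tested genes, 2.28% were higher and 4.21% lower. Without overlap, 7 markers were higher and 1 lower, against 9.57% and 12.3% of all tested genes. Their part in the kinesin values was not tested.

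**Figure D3:**
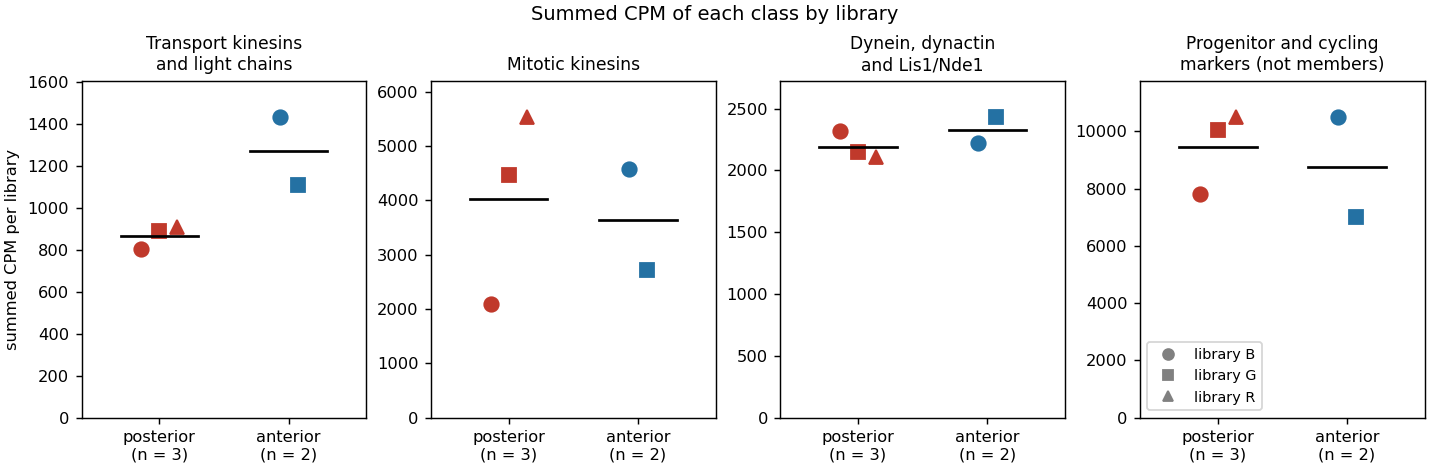
Summed CPM per library of the 27 transport kinesins and light chains, the 12 mitotic kinesins, the 30 dynein, dynactin and Lis1/Nde1 genes, and the 17 progenitor and cycling markers, which are no members. Points are libraries (posterior red, n = 3; anterior blue, n = 2), shapes give the library letter and black lines the group means. Of the 4 sums, the transport kinesins alone separate the groups, at 804.5 to 910.4 CPM in posterior and 1107 to 1433 CPM in anterior libraries. Sums not drawn separate them too. The Lis1/Nde1 genes alone had 470.8 to 765.0 CPM in posterior and 776.6 and 782.9 CPM in anterior libraries. The neuron, glial, motor adaptor and endothelial lists were lower in every posterior library, and the muscle list was higher.

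The 2 mitotic kinesins with an unadjusted p under 0.05 were kif20a and kif18a. The gene kif20a (ENSDARG00000044491) encodes a kinesin of the central spindle that is needed for the last step of cell division. In posterior B, G and R, kif20a stood at 253, 415 and 359 CPM, and in anterior B and G at 136 and 182 CPM. All 3 posterior libraries were above both anterior libraries. Posterior over anterior, kif20a had a log2 fold change of 1.1 ± 0.45 (SE; edgeR unadjusted p 0.03, adjusted p 0.726). It kept an unadjusted p under 0.05 in 8 of 12 alternatives. It lost it without posterior G, without posterior R, without anterior B and with the replicate letter as a block. The gene kif18a (ENSDARG00000008022) encodes a motor that damps the movements of chromosomes before they separate. kif18a had 71.0, 239.7 and 343 CPM in posterior libraries B, G and R and 44.4 and 81.9 CPM in anterior B and G. Posterior B lay under anterior G, so that the groups overlapped. The log2 fold change of kif18a was 1.78 ± 0.70 (SE; edgeR unadjusted p 0.0257, adjusted p 0.726). It kept an unadjusted p under 0.05 in 6 of 12 alternatives. Without posterior B its log2 fold change was 2.22 (edgeR, unadjusted p 0.00393), and without posterior R it was 1.32 (unadjusted p 0.134).

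The other spindle motors had values that overlapped between groups. The gene kif11 (ENSDARG00000010948) encodes the kinesin-5 that pushes the spindle poles apart. Levels of kif11 were 528, 1061.5 and 1447 CPM in posterior libraries B, G and R, against 1260.3 and 559 CPM in anterior B and G. The lowest values were in posterior B and anterior G and the highest in posterior R and anterior B. For kif11 the log2 fold change was 0.16 ± 0.43 (SE; edgeR unadjusted p 0.718, adjusted p 0.966). Its sign turned to -0.16 without posterior R and to -0.32 without anterior G. KIF22, a chromosome-bound kinesin, had 328, 772 and 684 CPM in posterior libraries B, G and R, against 976 and 583 CPM in anterior B and G. KIF22 had a log2 fold change of -0.39 ± 0.40 (SE; edgeR unadjusted p 0.353, adjusted p 0.865). The gene kifc1, a minus-end motor that focuses spindle poles, had 348, 611 and 851 CPM in posterior libraries B, G and R, against 606 and 388 CPM in anterior B and G. The test gave kifc1 a log2 fold change of 0.29 ± 0.41 (SE; edgeR unadjusted p 0.501, adjusted p 0.919). The same libraries were low for kif2c, a microtubule depolymerase, with 216, 336 and 483 CPM in posterior libraries B, G and R, against 401 and 187 CPM in anterior B and G. KIF23, a motor of cytokinesis, ran from 129 CPM in posterior B to 844 CPM in posterior R, with 375 and 355 CPM in anterior B and G. Posterior B was also low for KIF14 and kif15, at 10.4 and 20.7 CPM, against 106 to 238 CPM in the other 4 libraries. KIF4A and kif20bb overlapped too, and kif20ba was read in posterior G and anterior B, with at most 20 reads in any other library.

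The 10 remaining kinesins included 5 with no read (KIF6, kif9, KIF19, KIF25 and KIF26B), of which KIF6, kif9 and KIF19 are known from motile cilia. KIF2A, a microtubule depolymerase that restrains axon branches in mice, did not overlap between groups. The posterior libraries B, G and R had 104, 254 and 153 CPM of KIF2A (ENSDARG00000043571), against 75.9 and 81.7 CPM in anterior B and G. Posterior over anterior, KIF2A had a log2 fold change of 1.11 ± 0.59 (SE; edgeR unadjusted p 0.084, adjusted p 0.726). Without posterior B the unadjusted p was under 0.05. KIF7, a ciliary protein of Hedgehog signalling, had 16.5, 23.2 and 5.59 CPM in posterior libraries B, G and R, against 15.8 and 25.4 CPM in anterior B and G. The log2 fold change of KIF7 was -0.52 ± 1.09 (SE; edgeR unadjusted p 0.641, adjusted p 0.954). KIF26A (ENSDARG00000015016), which lacks motor activity in mammals, had 0, 0 and 17.5 CPM in posterior libraries B, G and R, against 48.8 and 6.24 CPM in anterior B and G. For KIF26A the log2 fold change was -2.0 ± 1.48 (SE; edgeR unadjusted p 0.196, adjusted p 0.758). Without anterior B that value was 0.073, so its sign rested on this library. The second KIF26A gene and kif26bb were detected and removed by the filter; kif26bb had 449 reads in posterior R and at most 8 in any other library.

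**Figure D4:**
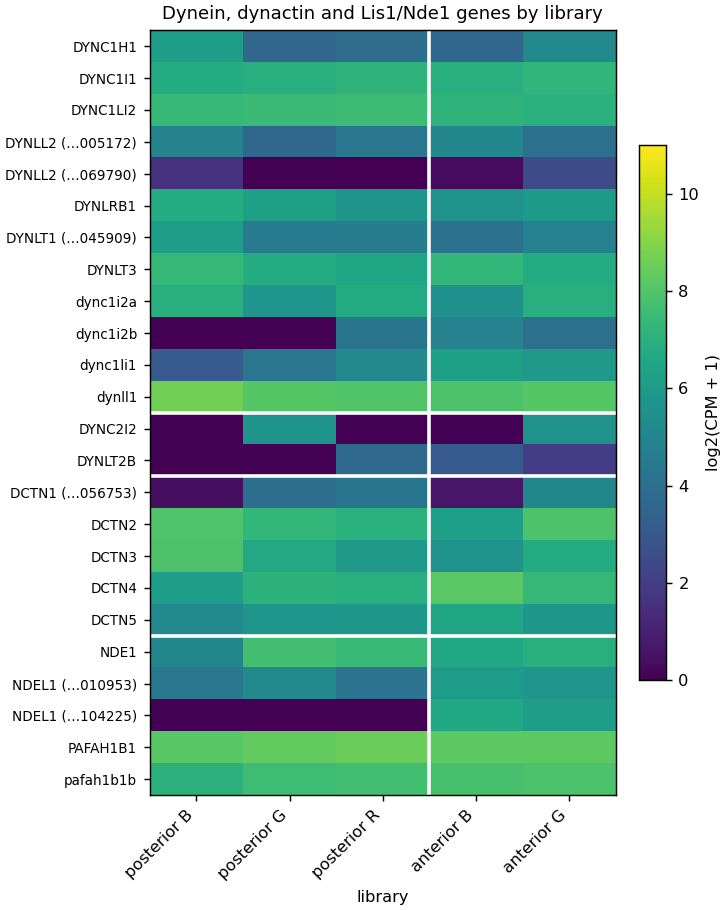
Levels of the 24 tested dynein, dynactin and Lis1/Nde1 genes, as log2(CPM + 1), with 1 column per library (posterior B, G and R, then anterior B and G). White lines split dynein 1 with the light chains, dynein 2, dynactin and the regulators, from top to bottom. Rows such as PAFAH1B1 and DYNC1I1 keep a similar shade across libraries, while dync1i2b, DYNC2I2 and DYNLT2B are dark in some. NDEL1 (ENSDARG00000104225) is dark in all posterior columns.

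Dynein, dynactin and their regulators had 30 members, of which 5 had no read, 1 was removed by the filter and 24 were tested. Of the 24, 10 were higher and 14 lower in posterior cells, and their median log2 fold change was -0.16. An unadjusted p under 0.05 (edgeR) was found for 1, against 6.49% of all tested genes. The summed level was close in all libraries, at 2316, 2146 and 2106 CPM in posterior libraries B, G and R and 2219 and 2433 CPM in anterior B and G. The groups overlapped, with means of 2189 ± 111 CPM in posterior (SD, n = 3) and 2326 ± 152 CPM in anterior cells (SD, n = 2).

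Dynein 1, the dynein of the cytoplasm, is built on a pair of heavy chains with intermediate, light intermediate and light chains. Of its 15 members, 12 were tested, 6 higher and 6 lower in posterior cells, and none had an unadjusted p under 0.05. The heavy chain DYNC1H1 (ENSDARG00000014717) had 71.1, 11.5 and 14.2 CPM in posterior libraries B, G and R, against 12.2 and 36.6 CPM in anterior B and G. DYNC1H1 had a log2 fold change of 0.31 ± 1.07 (SE; edgeR unadjusted p 0.775, adjusted p 0.974). This value was -0.92 without posterior B, the library with the highest level of the gene. The intermediate chain DYNC1I1, which binds dynactin, was among the steadiest members, with 108, 117 and 143 CPM in posterior libraries B, G and R, against 122 and 152 CPM in anterior B and G. The test gave DYNC1I1 a log2 fold change of -0.16 ± 0.52 (SE; edgeR unadjusted p 0.767, adjusted p 0.974). The light intermediate chain DYNC1LI2 (ENSDARG00000035924), which binds cargo adaptors, was higher in every posterior library. In posterior B, G and R, DYNC1LI2 stood at 163, 178 and 187 CPM, and in anterior B and G at 141 and 131 CPM. Posterior over anterior, DYNC1LI2 had a log2 fold change of 0.38 ± 0.48 (SE; edgeR unadjusted p 0.45, adjusted p 0.901). Its counterpart dync1li1 (ENSDARG00000098317) went the other way without overlap, with 7.98, 19.1 and 34.9 CPM in posterior libraries B, G and R, against 74.3 and 59.5 CPM in anterior B and G. Its log2 fold change was -1.63 ± 0.84 (SE; edgeR unadjusted p 0.0741, adjusted p 0.726).

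The light chain dynll1 (ENSDARG00000058454), of the LC8 type, had 406, 274 and 259 CPM in posterior libraries B, G and R, against 239 and 273 CPM in anterior B and G. The log2 fold change of dynll1 was 0.28 ± 0.42 (SE; edgeR unadjusted p 0.512, adjusted p 0.921). Near-identical light chain genes lose reads that fit more than one place, so counts of dynll1 and of the DYNLL2 genes are uncertain. The roadblock light chain DYNLRB1 had 51.3 to 109.8 CPM in posterior and 48.7 and 62.4 CPM in anterior libraries. DYNLT3, of the Tctex type, had 87.3 to 159.9 CPM in posterior and 109 and 157 CPM in anterior libraries. Of the paired intermediate chain genes, dync1i2b had no read in posterior B and G, 18.3 CPM in posterior R, and 28.4 and 15.6 CPM in anterior B and G. Limma-voom gave it an unadjusted p under 0.05 and edgeR 0.262. DYNLRB2, DYNLT5 and 1 of the DYNLT1 genes (ENSDARG00000094627) had no read.

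Dynein 2 moves particles back along the cilium, and 2 of its 4 members were tested. No heavy chain gene of dynein 2 was found by symbol, so the motor itself was not measured. DYNC2I1 and DYNC2LI1 had no read in any library. DYNC2I2 (ENSDARG00000057635), an intermediate chain, had 50.0 CPM in posterior G and 47.5 CPM in anterior G and no read in the other 3 libraries. For DYNC2I2 the log2 fold change was -0.67 ± 1.5 (SE; edgeR unadjusted p 0.664, adjusted p 0.956). DYNLT2B had 0, 0 and 12.3 CPM in posterior libraries B, G and R, against 7.73 and 3.02 CPM in anterior B and G. DYNLT2B had a log2 fold change of -0.16 ± 1.74 (SE; edgeR unadjusted p 0.927, adjusted p 0.994).

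Dynactin joins dynein to cargo and raises its processivity, and 5 of its 6 members were tested, 2 higher and 3 lower in posterior cells, none at an unadjusted p under 0.05. The gene named DCTN1, for the arm that grips dynein and the microtubule, exists as a pair. The tested gene (ENSDARG00000056753) had 0.324, 14.9 and 18.2 CPM in posterior libraries B, G and R, against 0.59 and 32.3 CPM in anterior B and G, and the other (ENSDARG00000019743) had 232 reads in anterior B and at most 1 read elsewhere. Anterior B was therefore the single library in which the second gene gave most of the pair, 95.9% of its reads, against 0% to 0.290% in the other 4. The test gave the tested gene a log2 fold change of -0.60 ± 1.35 (SE; edgeR unadjusted p 0.663, adjusted p 0.956). DCTN2, the dynamitin subunit, had 249, 155 and 131 CPM in posterior libraries B, G and R, against 72.2 and 240.2 CPM in anterior B and G. Posterior over anterior, DCTN2 had a log2 fold change of 0.16 ± 0.58 (SE; edgeR unadjusted p 0.787, adjusted p 0.976). DCTN3 was highest in posterior B. DCTN3 had 246, 99.5 and 58.2 CPM in posterior libraries B, G and R and 47.5 and 107 CPM in anterior B and G. The log2 fold change of DCTN3 was 0.76 ± 0.72 (SE; edgeR unadjusted p 0.31, adjusted p 0.842), and it was 0.029 without posterior B and 1.47 without anterior G. DCTN4, of the pointed end of the complex, was lower in every posterior library. Levels of DCTN4 were 68.1, 135.5 and 119.7 CPM in posterior libraries B, G and R, against 289 and 162 CPM in anterior B and G. For DCTN4 the log2 fold change was -1.05 ± 0.53 (SE; edgeR unadjusted p 0.07, adjusted p 0.726), and it was -0.58 without anterior B and -1.43 without anterior G. DCTN5, also of the pointed end, had 37.9 to 56.6 CPM in posterior and 57.9 and 87.8 CPM in anterior libraries, with no overlap by a small margin (edgeR unadjusted p 0.445, adjusted p 0.901).

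Lis1, the product of the PAFAH1B1 genes, and its partners Nde1 and Ndel1 bind dynein and help it to work under load and to form its complex with dynactin. NDEL1 (ENSDARG00000104225) had the smallest p of any member. It had no read in any posterior library, against 95.9 and 68.0 CPM in anterior B and G. The anterior mean was at least 421 times the posterior floor of 3 counts per library, a limit that covers the counting of reads only. It had an unadjusted p of 0.00185 and an adjusted p of 0.683 (edgeR), and all 12 alternatives gave an unadjusted p under 0.05. DESeq2 gave an adjusted p of 6.37e-09, and the alternatives ranged from that value to 0.946. Of the 252 genes that DESeq2 called, 172 had every library of one group at 3 reads or fewer. Every library of one group was at 0 for 519 of the 11827 tested genes and for 1 of the 58 tested members. At an average of 30 to 100 CPM elsewhere, a library had no read for 13.8% of genes in posterior B, against 3.57% (G) and 2.57% (R) in the other posterior libraries. The other NDEL1 gene (ENSDARG00000010953) was lower in posterior cells too, and did not overlap, with 20.4, 36.8 and 17.4 CPM in posterior libraries B, G and R, against 66.8 and 52.4 CPM in anterior B and G. Its log2 fold change was -1.27 ± 0.81 (SE; edgeR unadjusted p 0.143, adjusted p 0.732).

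The PAFAH1B1 genes were steady. PAFAH1B1 (ENSDARG00000032013) had 284, 329.9 and 367 CPM in posterior libraries B, G and R, against 301 and 296 CPM in anterior B and G, and its highest library was 1.29 times its lowest, the smallest ratio among the 41 members above 3 reads in all libraries. The median of that ratio was 3.84 over these members and 3.64 over the 6006 genes of the same kind, whatever their level. This gene averaged 316 CPM over all libraries, and its ratio was not compared with genes of a like level. PAFAH1B1 had a log2 fold change of 0.13 ± 0.39 (SE; edgeR unadjusted p 0.734, adjusted p 0.969). The duplicate pafah1b1b (ENSDARG00000026595) was lower in every posterior library by a small margin. The posterior libraries B, G and R had 135, 190.1 and 203 CPM of pafah1b1b, against 223 and 237 CPM in anterior B and G. The test gave pafah1b1b a log2 fold change of -0.38 ± 0.45 (SE; edgeR unadjusted p 0.413, adjusted p 0.884). NDE1, which acts in dividing progenitors in mammals, overlapped. In posterior B, G and R, NDE1 (ENSDARG00000103902) stood at 31.7, 208 and 177 CPM, and in anterior B and G at 96.9 and 122 CPM. Posterior over anterior, NDE1 had a log2 fold change of 0.35 ± 0.68 (SE; edgeR unadjusted p 0.62, adjusted p 0.947). Posterior B was lowest, as for the summed mitotic kinesins.

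**Figure D5:**
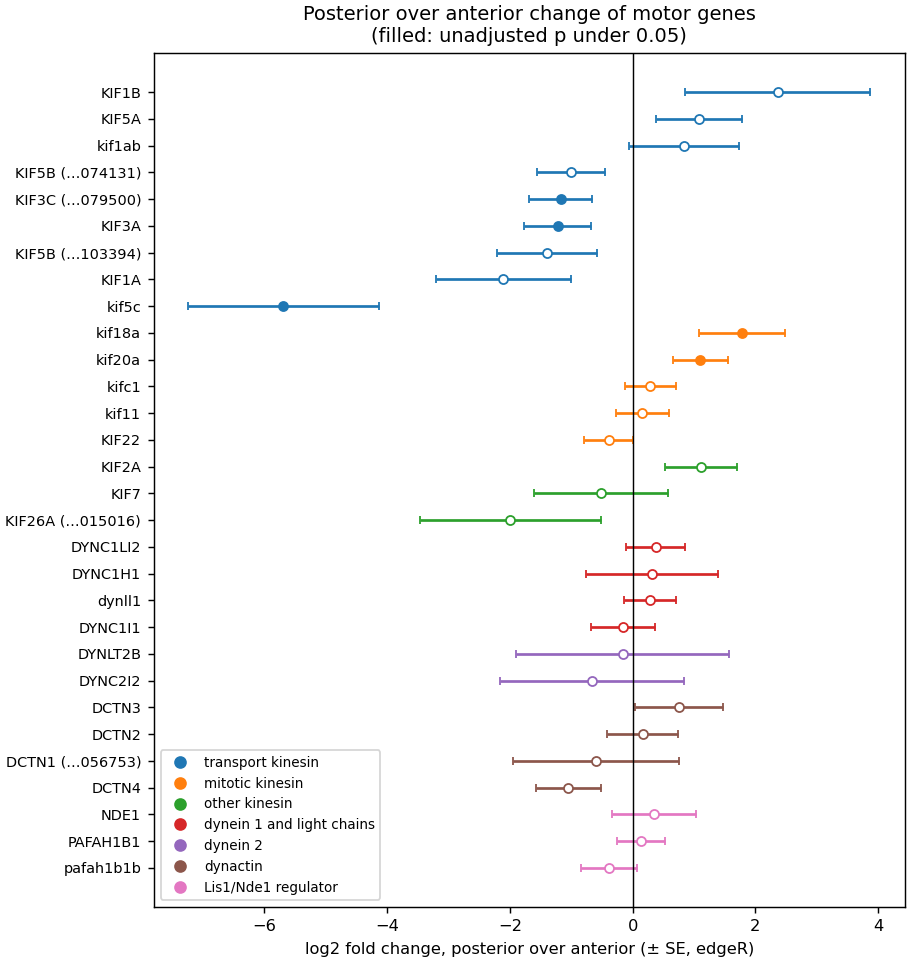
Log2 fold change, posterior over anterior, of 30 named members with the approximate SE from the edgeR test (n = 3 posterior and 2 anterior libraries); filled points have an unadjusted p under 0.05 and none has an adjusted p under 0.05. NDEL1 (ENSDARG00000104225) is left out because it had no read in posterior cells. Transport kinesins lie on both sides of 0, with kif5c farthest to the left, and the filled mitotic kinesins lie to the right.

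Adaptors and partners of the motors were taken as a list of 57 symbols, which matched 65 genes that are no members. Among them cenpe encodes a mitotic kinesin, which its symbol kept out of the members and of the mitotic class. In sum the 65 genes had 4837.5 to 6076.4 CPM in posterior libraries, against 6711.5 and 6256.9 CPM in anterior B and G. Of these, 50 were tested, 19 higher and 31 lower in posterior cells, and their median log2 fold change was -0.39. An unadjusted p under 0.05 was found for 0 higher and 3 lower, and 0 had an adjusted p under 0.05 (edgeR). Over all tested genes, 2.28% were higher and 4.21% lower at an unadjusted p under 0.05. MAPK8IP1 (ENSDARG00000102229), a scaffold that links kinesin-1 to cargo, had 39, 1 and 2 reads in the posterior libraries. In them this gene stood at 2.53, 0.0634 and 0.106 CPM, against 66.0 and 17.5 CPM in anterior B and G. The log2 fold change of MAPK8IP1 was -5.58 ± 1.90 (SE; edgeR unadjusted p 0.0137, adjusted p 0.726). FEZ1, a kinesin-1 adaptor of axon growth, had 74.8, 54.4 and 104 CPM in posterior libraries B, G and R, against 111.5 and 314 CPM in anterior B and G. For FEZ1 the log2 fold change was -1.45 ± 0.60 (SE; edgeR unadjusted p 0.0318, adjusted p 0.726). MAPRE3 (ENSDARG00000020231), a neuronal protein of growing microtubule ends, had 3 reads in posterior B and none in posterior G and R, against 21.6 and 20.1 CPM in anterior B and G (edgeR unadjusted p 0.0225, adjusted p 0.726). The groups did not overlap in any of the 3 genes. Of the 50 tested, 6 were higher and 8 lower without overlap, against 9.57% and 12.3% of all tested genes. A second gene of MAPK8IP1 and of MAPRE3 each overlapped.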

How the data were processed

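The authors deposited raw read counts for Ensembl genes, with 1 file for each library. Per the submitters' processing notes, the tools were bcl2fastq 1.8.4, TopHat2 2.1.0 and HTSeq 0.6.1 with genome build GRCz10; the annotation release and strand setting are not given in the sources used here. Per the labels' protocols, SMART-Seq v4 amplified the RNA. The 5 lines for reads given to no gene, 27.5% to 31.0% of reads, were left out; they include reads that fit several places, so near-identical, overlapping and antisense genes are uncertain. Libraries were grouped by source name; further libraries were not analysed here.

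Counts were tested with the edgeR 4.0.16 quasi-likelihood test in R 4.3.3 (non-legacy glmQLFit, TMM factors, filterByExpr with a minimum count of 10 and total of 15), two-sided, with Benjamini-Hochberg adjustment over all tested genes and a threshold of 0.05. The SE is the log2 fold change over the square root of F. The script was run on simulated data, and the share of changed genes that it recovered is not reported here. Alternatives used DESeq2 1.42.0, limma 3.58.1 (voom), RLE factors, other filters, a replicate block and each library left out; the legacy edgeR form was added after seeing the data. Symbols came from a table that names 26121 of 31953 identifiers; genes that share a symbol are told apart by identifier.

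Classes follow known roles. Members, gene lists and tests were chosen with earlier results of these data known. Genes named in full were members with an unadjusted p under 0.05, the 3 smallest p in each direction, the 3 highest mean CPM of each class, and all tested genes of KIF5A, KIF5B, KIF5C, KIF1A, KIF1B, KIF3A, DYNC1H1, DCTN1 and KIF11. Others named were chosen after their values were seen.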

Additional observations from a re-analysis of the deposited data

How the results depend on the processing

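With all 5 libraries, 0 genes had an adjusted p under 0.05 in edgeR and 768 an unadjusted p under 0.05. DESeq2 gave 252 adjusted calls, 1 of them a member (NDEL1, ENSDARG00000104225), and leaving out 1 library gave 0 to 7; the genes with an unadjusted p under 0.05 then numbered 502 to 1009. Members with an unadjusted p under 0.05 numbered 6, with 2 higher and 4 lower in posterior cells. Leaving out 1 library gave 2 to 10 members, 0 to 4 higher and 2 to 7 lower. The legacy edgeR form, added after seeing the data, gave 3, with 1 higher and 2 lower, and limma-voom gave 1 higher. The cause of these moves was not tested. Libraries that share a letter did not deviate together (Pearson's r across genes -0.0019 for B and 0.0063 for G). With 2 anterior libraries, their deviations from the group mean mirror each other, so this check is weak. Nothing in the labels explains the letters, and the libraries were treated as sharing only a letter. The replicate block was fitted to B and G of both groups. It gave 211 genes and 2 members an unadjusted p under 0.05, with 0 members higher and 2 lower. Those 4 libraries unblocked, which is the same fit as without posterior R, gave 3 members, 0 of them higher. Adaptor genes with an unadjusted p under 0.05 numbered 0 higher and 3 lower. DESeq2 gave 2 higher, the replicate block 0 lower, the 4 libraries unblocked 1 higher, and leaving out 1 library 0 to 2 higher and 2 to 5 lower.

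The median log2 fold change of transport kinesins was 0.38 with no filter beyond 1 count, where 22 genes were tested in place of 19, and -0.99 to -0.43 with 1 library left out. For dynein, dynactin and Lis1/Nde1 genes it was -0.27 to 0.12 with 1 library left out, and the mitotic median lay between -0.30 (replicate block) and 0.57 (without anterior B), on both sides of 0. Of the 31 named members, 20 kept their sign in every alternative that gave a value and 11 did not, none of which had an unadjusted p under 0.05. NDEL1 (ENSDARG00000104225) aside, 14 of the other 19 that kept their sign moved by over 1.5 times when some library was left out, and 5 named members (KIF5A, both KIF5B genes, KIF2A and DCTN4) had an unadjusted p under 0.05 without some library but not with all 5. With 1 library left out, the log2 fold change was -0.72 to 0.030 for KIF22, -0.32 to 0.86 for kif11, -0.017 to 0.64 for kifc1, -11.80 to 0.073 for KIF26A (ENSDARG00000015016), -0.92 to 1.34 for DYNC1H1, -0.30 to 0.0043 for DYNC1I1, -1.58 to 11.06 for DYNC2I2, -9.46 to 0.62 for DYNLT2B, -1.48 to 4.27 for DCTN1 (ENSDARG00000056753), -0.44 to 1.28 for DCTN2 and -0.038 to 0.84 for NDE1. With the replicate block it was -0.14 for kif11, -0.043 for kifc1, 0.12 for DYNC2I2 and -0.18 for NDE1. The same 4 libraries unblocked gave -0.16 for kif11, -0.017 for kifc1 and 0.037 for DYNC2I2. Limma-voom gave -0.073 for DYNC1H1 and -0.012 for NDE1. A fitted value for a gene at 0 in one group is no bound. Where leaving out a library left 1 anterior library, it was assumed to vary like the posterior ones. Genes under about 30 CPM often had no read in a library. Of genes that averaged 10 to 30 CPM in the other libraries, 15% (posterior R) to 37.9% (posterior B) had none. A single read stood for 0.0495 CPM (anterior G) to 0.0649 CPM (posterior B). The cause of the missing values was not tested.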
